A study of Mus musculus with 4 samples.

Results

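Early granulocyte precursors are marrow cells that are filling their first, primary (azurophil) granules. The cells described here were chosen by their measured transcripts: those in which transcripts of the granule proteins *Elane*, *Mpo* and *Prtn3* together made up at least 0.2% of the cell's unique molecular identifiers (UMIs, each standing for 1 captured RNA molecule), with at most 1 UMI of the reticular cell gene *Adipoq*. Of 9795 cells that passed the filters, 169 met this rule. They came from 4 droplet single-cell RNA libraries of cells sorted as tdTomato+ from mouse femurs, 7 days after the marrow of the right femur was mechanically ablated. The 2 libraries of the ablated femur are called ABL and the 2 of the contralateral, unoperated left femur CONT. All mice carried Cxcl12-iCreER, a bacterial artificial chromosome transgene that drives tamoxifen-inducible Cre from *Cxcl12* regulatory sequence, and 1 copy of the R26R-tdTomato reporter, and all had received tamoxifen 7 days before the operation, so the contralateral femur is that of an operated, tamoxifen-treated animal. Replicate 1, pooled from 7 mice, was made with Chromium v2 chemistry and replicate 2 with v3, and the chemistry cannot be told apart from the replicate. The age of these mice was not given in the sources used here.

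In the granulocyte lineage, granule proteins are made in a fixed order. Promyelocytes make the primary granule proteins: the serine proteases neutrophil elastase (*Elane*), proteinase 3 (*Prtn3*) and cathepsin G (*Ctsg*), and myeloperoxidase (*Mpo*), which makes hypochlorous acid from hydrogen peroxide. Myelocytes then turn to the secondary (specific) granule proteins, among them lactoferrin (*Ltf*), cathelicidin (*Camp*) and neutrophilic granule protein (*Ngp*), and cell division stops after that stage. Precursors shared with monocytes also make *Elane* and *Mpo*, and the transcription factor *Irf8* favors the monocyte branch whereas *Gfi1* and *Cebpe* act on the granulocyte branch.

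The promoters of 4 primary granule genes and of the secondary granule gene *Ngp* are shown because the transcripts of these genes define the cells and order them. Each sequence runs from 250 bases before to 50 bases after the RefSeq start, on the gene's own strand and in GRCm38.p6 (mm10) coordinates. Capitals mark every match, on either strand, to GAGGAA (a core bound by ETS factors such as PU.1), TTNNGNAA (a C/EBP motif) or TGTGGT (a RUNX motif).
Elane promoter, chr10:79886062-79886361, plus strand: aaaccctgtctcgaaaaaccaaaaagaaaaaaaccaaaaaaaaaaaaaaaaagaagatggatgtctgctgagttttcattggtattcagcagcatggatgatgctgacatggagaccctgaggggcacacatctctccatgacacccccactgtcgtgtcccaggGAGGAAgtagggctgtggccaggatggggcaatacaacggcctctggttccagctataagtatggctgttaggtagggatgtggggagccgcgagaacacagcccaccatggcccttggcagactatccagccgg
Prtn3 promoter, chr10:79879417-79879716, plus strand: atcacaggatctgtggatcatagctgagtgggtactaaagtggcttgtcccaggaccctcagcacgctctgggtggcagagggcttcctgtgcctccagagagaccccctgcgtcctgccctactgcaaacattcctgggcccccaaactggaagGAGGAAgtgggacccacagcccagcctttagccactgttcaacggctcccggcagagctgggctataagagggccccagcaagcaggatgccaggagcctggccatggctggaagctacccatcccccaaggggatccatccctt
Mpo promoter, chr11:87793534-87793833, plus strand: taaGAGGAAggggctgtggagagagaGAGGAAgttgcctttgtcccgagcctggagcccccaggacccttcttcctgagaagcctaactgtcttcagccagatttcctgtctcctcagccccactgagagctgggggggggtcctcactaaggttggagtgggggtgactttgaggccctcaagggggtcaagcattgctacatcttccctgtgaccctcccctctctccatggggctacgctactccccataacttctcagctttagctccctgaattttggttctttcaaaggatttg
Ctsg promoter, chr14:56102525-56102824, minus strand: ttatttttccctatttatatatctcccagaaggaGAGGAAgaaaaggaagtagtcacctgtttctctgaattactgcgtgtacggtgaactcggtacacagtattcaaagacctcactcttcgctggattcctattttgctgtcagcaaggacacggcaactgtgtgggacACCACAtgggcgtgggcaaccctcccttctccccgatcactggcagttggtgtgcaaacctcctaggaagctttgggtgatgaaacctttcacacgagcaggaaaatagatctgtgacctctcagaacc
Ngp promoter, chr9:110419558-110419857, plus strand: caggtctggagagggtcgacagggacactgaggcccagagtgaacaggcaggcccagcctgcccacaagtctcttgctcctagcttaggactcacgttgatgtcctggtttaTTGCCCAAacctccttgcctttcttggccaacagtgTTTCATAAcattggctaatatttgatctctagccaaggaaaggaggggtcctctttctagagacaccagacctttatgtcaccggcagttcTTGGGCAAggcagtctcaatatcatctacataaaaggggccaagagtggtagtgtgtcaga

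GAGGAA stood once in the windows of *Elane*, *Prtn3* and *Ctsg* and 2 times in that of *Mpo*, and 28.3% of 32851 promoter windows held it. The *Ctsg* window also held 1 TGTGGT on the opposite strand (16.8% of all windows held that motif). The *Ngp* window held 3 TTNNGNAA matches and no GAGGAA, against 40.7% of windows with TTNNGNAA. No matches of different motifs overlapped in the 5 windows. The window of *Camp* held none of the 3 motifs. These matches describe the letters in the windows and were not compared with any binding measurement. *Prtn3* and *Elane* are neighbors on chromosome 10, with 3072 bases between the annotated end of *Prtn3* and the start of *Elane*.

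The libraries differed in ways that bear on every comparison. Values of the 4 libraries are given below in the order CONT replicate 1, ABL replicate 1, CONT replicate 2 and ABL replicate 2. Over all barcodes they held 44784072, 22889380, 40486876 and 41536563 UMIs, and 3419, 1438, 2397 and 2541 cells passed the filters. The rule found 113, 20, 7 and 29 cells in them, with a median of 17595, 19880, 35956 and 21284 UMIs and 3355, 3958, 5138 and 3398 genes per cell. The library labelled ABL replicate 2 had *Xist*, the transcript of the inactive X chromosome, in 3 of 2541 cells (0.118%), whereas 44.9%, 69.4% and 69.5% of cells carried it in CONT replicate 1, ABL replicate 1 and CONT replicate 2. Among the *Elane*/*Mpo*/*Prtn3* cells, *Xist* was found in 68 of 113, 19 of 20, 5 of 7 and 0 of 29 cells, and 0 of 29 allows a share of up to 10.3%. Transcripts of the Y chromosome were found in 26.1%, 12.7%, 27.2% and 70.6% of all cells, and in 37 of 113, 0 of 20, 2 of 7 and 22 of 29 of the *Elane*/*Mpo*/*Prtn3* cells, where 0 of 20 allows a share of up to 15%. The mix of female and male cells thus differed between the CONT and ABL libraries of both replicates. Each was analysed as labelled, and a difference between CONT and ABL in either replicate cannot be told apart from one between animals. In replicate 1, 5 cell barcodes were shared between CONT and ABL, and in replicate 2, 1 was, none of them among the *Elane*/*Mpo*/*Prtn3* cells. Scrublet called 77, 7, 1 and 17 cells doublets, and 0 of the 169 cells were among them.

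The labels describe the sorted cells as bone marrow mesenchymal cells carrying tdTomato, and the 169 cells had little of the mesenchymal transcripts *Cxcl12* and *Adipoq*. Transcript levels are given as CPM, the UMIs of a gene summed over the cells of a library, divided by all UMIs of those cells and multiplied by 1000000. tdTomato was at 36, 26.7, 28 and 163 CPM, against 447, 536, 923 and 886 CPM in droplets with at most 300 UMIs, which hold free RNA rather than cells. *Cxcl12* was at 204, 256, 28 and 6.67 CPM against 5311, 5467, 11009.9 and 1946 CPM in those droplets. As a share of its level in the droplets, tdTomato in the cells was at 8.05%, 4.99%, 3.03% and 18.4%, and *Cxcl12* at 3.85%, 4.68%, 0.254% and 0.343%. The tdTomato share was the larger in every library, closest to that of *Cxcl12* in ABL replicate 1 and farthest from it in ABL replicate 2. In ABL replicate 2, 9 of 29 cells held at least 5 tdTomato UMIs, the highest 16, and 8 of these 9 had no *Cxcl12* UMI. Whether the cells carried reporter transcript of their own was not tested. *Adipoq*, which the rule itself limited, had 1 UMI in 43, 7, 0 and 0 cells, and a further 14, 3, 7 and 1 cells met the granule gene threshold but had more than 1 *Adipoq* UMI and were left out.

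The genes that chose the cells, and their companions in the primary granule, were present in all 4 libraries. *Elane* was at 10621, 11712, 7391 and 8848 CPM and was detected in 113 of 113, 19 of 20, 7 of 7 and 28 of 29 cells. *Mpo* was at 4380.3, 5962, 3037 and 3127 CPM and *Prtn3* at 5205, 6167, 7243 and 8945 CPM. *Elane* and *Mpo* were higher in both replicate 1 libraries than in both replicate 2 libraries, and *Prtn3* was highest in ABL replicate 2. *Ms4a3*, a membrane protein of myeloid precursors, was at 1390.5, 1828, 740.3 and 763 CPM, and *Fcnb*, the lectin ficolin-B, at 1335, 839.6, 624 and 702 CPM. *Fcnb* was found in 81 of 113, 14 of 20, 6 of 7 and 21 of 29 cells, fewer than *Elane*, *Mpo* or *Prtn3* in every library. *Ctsg*, which the rule did not use, was at 2565, 4027, 2117 and 2695 CPM. The free RNA droplets held *Elane* at 687, 338, 84.5 and 73.3 CPM, so that the background was largest in CONT replicate 1. After every cell was thinned to 5000 UMIs, *Elane* remained detectable in 97.2%, 95%, 100% and 93.1% of the cells (100%, 95%, 100% and 96.6% unthinned), with 4 shallower cells of CONT replicate 1 left out. In reticular cells with more than 5 *Adipoq* UMIs, which should lack the gene, the thinned share was 21.1%, 11.6%, 0.681% and 0.420%, from cells with a median of 5414, 7037, 13290 and 7891 UMIs before thinning.

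The 169 cells were set beside 3 classes of other marrow cells from the same libraries: cells with *Ltf*, *Camp* and *Ngp* at 0.5% or more of UMIs and fewer primary granule transcripts (*Ltf*/*Camp*-stage cells), mature neutrophils with *Retnlg* at 0.5% or more, and monocyte cells with *Csf1r*, *Ccr2* and *Ms4a6c* at 0.1% or more and *Lyz2* at 0.5% or more. Since the rule made this contrast, it is a description without a test. Among genes at 100 CPM or more in every library, the 20 with the largest lowest ratio over the 4 libraries were *Mpo*, *Elane*, *Ctsg*, *Prtn3*, *Nkg7*, *Cst7*, *Ms4a3*, *Prss57*, *Myb*, *Rgcc*, *Cmtm7*, *Etfb*, *Ramp1*, *Cdca7*, *Dpy30*, *Alas1*, *Gstm1*, *Mcm6*, *Rpia* and *Eif5a*. *Prss57* encodes a further serine protease of the primary granule, *Cst7* an inhibitor of the cathepsin that activates these proteases, and *Alas1* the first enzyme of heme synthesis, on which myeloperoxidase depends. *Myb*, a transcription factor of dividing progenitors, was at 144, 187, 212 and 118 CPM in the 169 cells and at 15.9, 16.2, 30.7 and 16 CPM in *Ltf*/*Camp*-stage cells. The *Ltf*/*Camp*-stage cells held 70.3, 46.5, 54.4 and 44 CPM of *Elane*. They also had fewer UMIs per cell, with medians of 5962, 6614.5, 16709 and 9438.

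The 169 cells were not uniform, and their label held for only part of them. The 3 ranges were drawn after their values were seen, by the summed share of *Ltf*, *Camp* and *Ngp* (at least 0.5%) and, below that, of the 6 monocyte-lineage genes *Irf8*, *Ly86*, *F13a1*, *Ccr2*, *Ms4a6c* and *Csf1r* (at least 0.05%). The first limit lay in a gap without cells from 0.385% to 0.770%, and the second in a gap from 0.035% to 0.065%. Within a factor of 1.5 of these limits lay 3 and 2 cells. The azurophil-high range, below both limits, held 47 cells (26, 7, 3 and 11 by library), the *Irf8*/*Ly86* range 57 (37, 7, 4 and 9) and the *Camp*/*Ngp* range 65 (50, 6, 0 and 9). Among the 7 azurophil-high cells of ABL replicate 1 is the cell with *Prss34*, *Mcpt8* and *Cpa3* transcripts described below. It had 0 *Elane* UMIs and counts in the values of that range. Every range was found in both conditions of replicate 1 and in ABL replicate 2. None of the 7 cells of CONT replicate 2 was in the *Camp*/*Ngp* range, which allows a share of up to 42.9%. The ranges also differed in the share of UMIs from *Elane*, *Mpo* and *Prtn3*, with medians of 3.38%, 0.703% and 1.88%. Because the cells were split by their own transcripts, all values by range are descriptions.

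**Figure D1:**
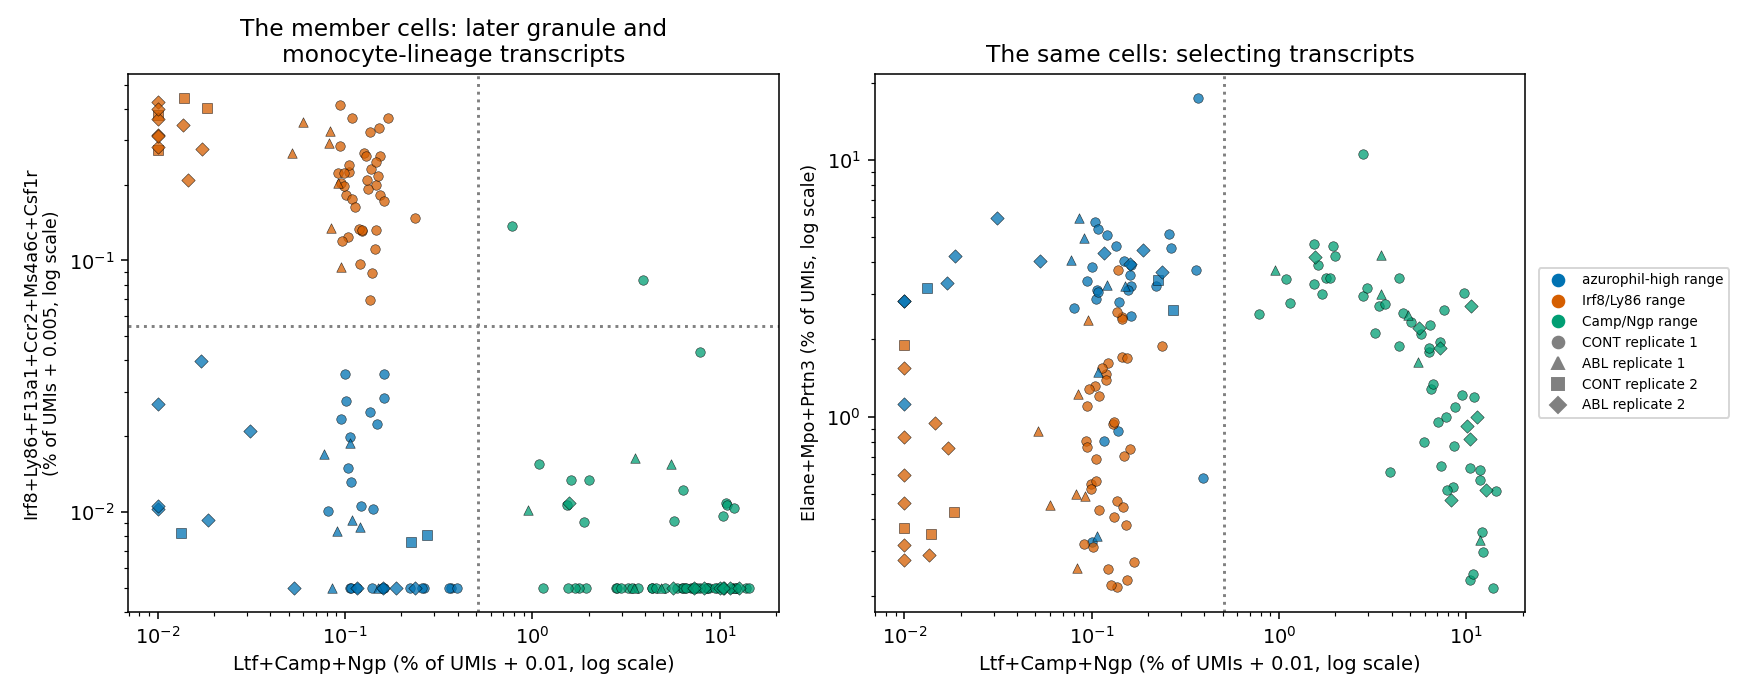
Each point is 1 of the 169 cells (member cells), placed by the share of its UMIs (%, log axes with 0.01 or 0.005 added) from Ltf, Camp and Ngp against that from the 6 monocyte-lineage genes (left) or from Elane, Mpo and Prtn3 (right), with dotted lines at the limits of 0.5% and 0.05%. On the left, the limits themselves set the areas of the 47 azurophil, 57 Irf8/Ly86 and 65 Camp/Ngp cells, and 2 Camp/Ngp cells also lie past the monocyte-lineage limit. On the right, the azurophil cells (0.326% to 17.4% from Elane, Mpo and Prtn3) and the Irf8/Ly86 cells (0.218% to 3.73%) overlap.

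The azurophil-high range held the highest primary granule transcripts. *Elane* was at 18405, 16847, 14130.0 and 15680.3 CPM there, against 4288, 2991, 2761 and 1301 CPM in the *Irf8*/*Ly86* range. *Mpo* was at 8327, 9788, 4107 and 5391 CPM against 2971, 2971, 2302 and 2252 CPM. Both were higher in the azurophil-high range in every library. The leading genes of the range included *Ctsg*, *Mpo*, *Myb*, *Nkg7*, *Srgn* (serglycin, the proteoglycan that packs proteases into granules), the endoplasmic reticulum proteins *Dnajc3*, *Manf* and *Calr*, and *Gfi1*. *Gfi1*, a repressor needed for neutrophil formation, was at 87.5, 127, 88.4 and 54.1 CPM in the azurophil-high range and at 5.78, 0, 0 and 0 CPM in the *Irf8*/*Ly86* range. The progenitor marker *Cd34* was low, at 56.9, 17.4, 0 and 29.1 CPM. *Lyz2*, which encodes a lysozyme shared by granulocytes and monocytes, was at 497, 359, 128 and 237 CPM, below the 4198 to 5584 CPM of the *Irf8*/*Ly86* range in every library.

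The *Irf8*/*Ly86* range combined *Elane*, *Mpo* and *Prtn3* with transcripts of the monocyte branch. *Irf8* itself was at 447, 650.4, 567 and 569.7 CPM, against 6.57, 0, 0 and 33.3 CPM in the azurophil-high range, and it was one of the genes that set the limit. Genes that the limits did not use followed: *Ifi30*, *Psap*, *Ctss*, *Lgals3*, *S100a10* and *Irf5* were among the leading genes, of which *Ifi30*, *Psap* and *Ctss* encode lysosomal proteins. Of the 12 measured genes of the monocyte-lineage list, 10 were at least 2-fold higher than in the azurophil-high range in every library, beside 3.48% of all 2530 genes measured. Of these 12, *Irf8*, *Ly86*, *F13a1*, *Ccr2* and *Ms4a6c* set the limit, and 5 of the 7 others (*Klf4*, *Ctss*, *Mpeg1*, *Lgals3* and *S100a4*) were higher. *Cebpe*, the factor of the promyelocyte to myelocyte step, was at 21.7, 19.1, 33.8 and 10.7 CPM, against 311, 354, 403 and 241 CPM in the azurophil-high range and 692, 652 and 639 CPM in the *Camp*/*Ngp* range (CONT replicate 2, with no such cell, is left out of *Camp*/*Ngp* values). The range stood below the monocyte cells of the same libraries in genes of later monocytes, although *Csf1r* was one of the genes that chose the monocyte cells. *Csf1r*, the receptor of macrophage colony-stimulating factor, was at 65.1, 57.4, 60.8 and 80.6 CPM against 220.5, 559, 340.0 and 928 CPM in monocyte cells. *Cd74*, the MHC class II invariant chain, was at most at 25.5 CPM, whereas monocyte cells held 1385 to 5961 CPM. The range made up 33.7% of all cells chosen by the rule, and its other transcripts went against the label of granulocyte precursors, so it is named here only by its leading genes.

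**Figure D2:**
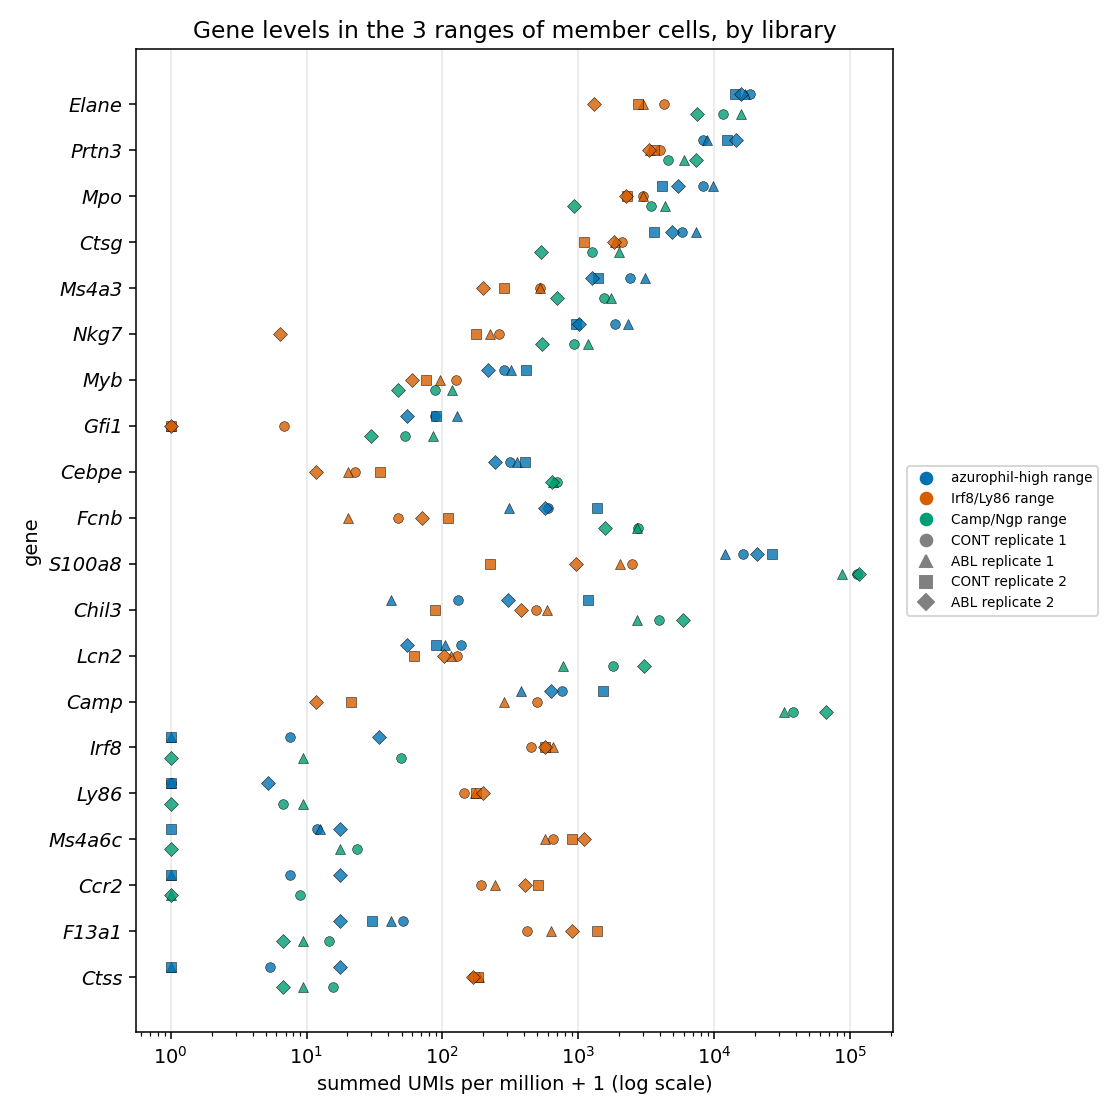
CPM + 1 (log axis) of selected genes in each range (colors), with 1 symbol for each library that had cells in the range. Elane and Mpo are highest in the azurophil-high range, Irf8 and Ly86 stand in the Irf8/Ly86 range, and Camp and Fcnb are highest in the Camp/Ngp range.

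The *Camp*/*Ngp* range combined primary and secondary granule transcripts in the same cells. *Elane* remained at 11554, 15739 and 7483 CPM in CONT replicate 1, ABL replicate 1 and ABL replicate 2, and *Mpo* at 3440.5, 4363 and 933 CPM. The leading genes after *Camp* and *Ngp* were *S100a9*, *Cd177*, *Orm1*, *Lcn2*, *S100a8*, *Itgb2l*, *Chil3*, *Ltf*, *Chil1*, *Marcksl1*, *Abhd5*, *Lrg1*, *Gsn*, *Pglyrp1* and *Fcnb*. *Fcnb* was at 2729, 2683 and 1566 CPM, above the 595, 307 and 566 CPM of the azurophil-high range in the same 3 libraries. Of the 14 measured genes of the specific granule list, 11 were at least 2-fold higher than in the azurophil-high range in all 3 libraries, beside 1.6% of 2125 genes. In the opposite direction, 7 of 9 ribosome biogenesis genes were at least 2-fold higher in the azurophil-high range, beside 3.06% of all genes. Among endoplasmic reticulum and secretory genes this count was 3 of 17, and among cell cycle genes 0 of 28. *Ltf*, *Camp* and *Ngp*, which set the limit, belong to the first of these counts.

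The 76 granulocyte-side cells of CONT replicate 1, the library with the most cells, were followed in steps of the *Ltf*, *Camp* and *Ngp* share: under 0.5% (26 cells), 0.5% to 5% (21 cells) and 5% or more (29 cells). The middle step includes 2 cells past the monocyte-lineage limit, which held all of its *Irf8* UMIs. Without them its *Elane* was at 19735, *Mpo* at 7188, *Prtn3* at 7627 and *Ctsg* at 2799 CPM. With all 76 cells, *Elane* was at 18405, 17923 and 6974 CPM along the steps and *Prtn3* at 8338, 7142 and 2685 CPM, so that both stayed close to their level until the last step. *Mpo* was at 8327, 6491 and 1246 CPM and *Ctsg* at 5802, 2557 and 316 CPM, lower at each step. The ratio of *Elane* to *Ctsg* UMIs went from 3.17 to 7.01 and 22.1, and that of *Elane* to *Mpo* from 2.21 to 2.76 and 5.60. *Elane*, *Mpo* and *Prtn3* chose the cells, so their sum could not go below 0.2% at any step, whereas *Ctsg* had no such limit. *Elane* to *Prtn3* stayed between 2.21 and 2.60, and was 1.02 to 1.13 in the azurophil and *Camp*/*Ngp* ranges of replicate 2, where the chemistry also differed.

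Other genes followed their own steps. *S100a8*, a subunit of the calcium-binding protein calprotectin, was at 16286, 78159 and 137765 CPM and *Fcnb* at 595, 2554 and 2855 CPM, and *Fcnb* was close to its final level at the middle step. *Lcn2* and *Ltf* were higher at each step, with the larger rise at the last: *Lcn2* was at 136, 271 and 2921 CPM and *Ltf* at 61.3, 108 and 817 CPM. The regulator *Cebpe* was at 311, 602 and 757 CPM and *Myb* at 284, 127 and 58.5 CPM, in opposite order. *Calr*, an endoplasmic reticulum chaperone, was at 998, 572 and 121 CPM and *Npm1*, a nucleolar protein of ribosome assembly, at 1193, 464 and 269 CPM. *Top2a*, an enzyme of dividing cells, was at 136, 149 and 140.4 CPM and showed no order. Across these 76 cells, Spearman's rho with the *Ltf*, *Camp* and *Ngp* share was -0.84 for *Ctsg*, -0.73 for *Mpo*, -0.52 for *Elane*, 0.89 for *S100a8*, 0.63 for *Fcnb* and 0.01 for *Top2a*. These cells share 1 library and every share is of the same total, so no p is given.

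**Figure D3:**
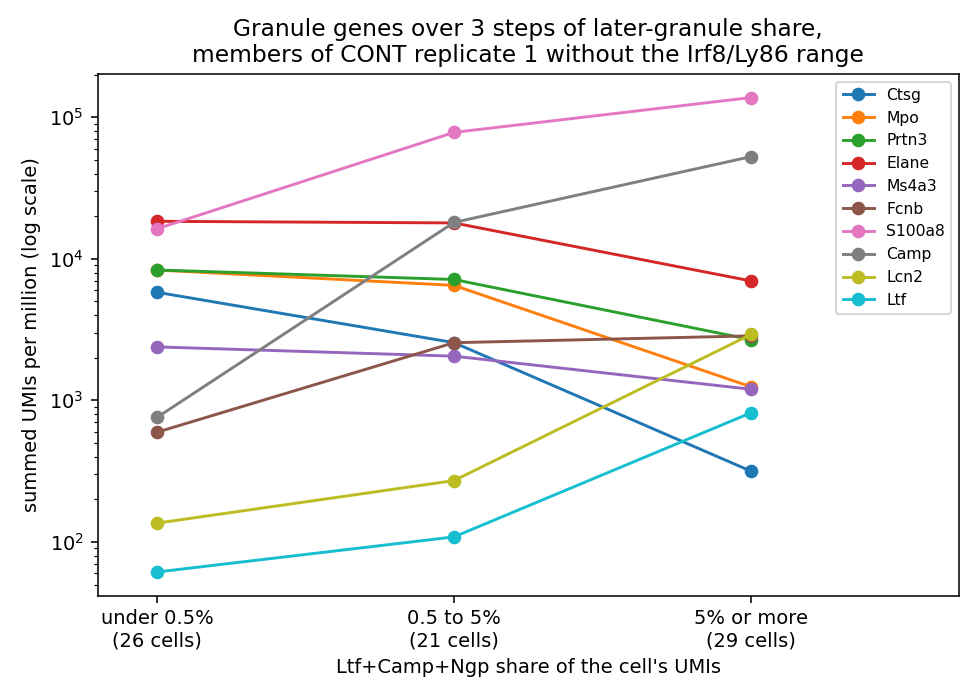
Summed CPM (log axis) of 10 granule and lineage genes in the 76 granulocyte-side cells of CONT replicate 1, by step of the Ltf, Camp and Ngp share (under 0.5%, 0.5% to 5%, 5% or more). Ctsg falls from 5802 to 316 CPM, Elane from 18405 to 6974, and S100a8 goes from 16286 to 137765.

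The ribosome biogenesis and secretory lists stood higher in all 169 cells than in the *Ltf*/*Camp*-stage cells, a contrast the rule made, so that counts are read only as a description. Of 2082 genes measured, 659 (31.7%) were at least 2-fold higher in the 169 cells in every library and 130 (6.24%) at least 2-fold lower. Among ribosome biogenesis genes this held for 7 of 7, including nucleolin (*Ncl*), at 309, 423, 756 and 622 CPM against 51.9, 57.3, 101 and 116 CPM. Of the endoplasmic reticulum and secretory genes, 14 of 16 were higher, among them the chaperone *Hspa5* at 317, 443, 1056 and 592 CPM against 87.1, 109.7, 104 and 152 CPM. The specific granule list was lower for 17 of 20 genes. Among cell cycle genes, 9 of 28 were higher, a share near that of all genes, including the replication licensing factor *Mcm6* at 119, 129, 276 and 150.0 CPM against 20.2, 10.8, 25.8 and 20 CPM. The mitosis gene *Top2a* was at 156, 158, 608 and 372 CPM, against 66.4, 73, 478 and 228 CPM. After thinning to 5000 UMIs, at least 5 UMIs of the mitosis genes were found in 58.7%, 60%, 71.4% and 62.1% of the 169 cells (85.0%, 85%, 100% and 86.2% unthinned), and in 21.4%, 19.1%, 27.5% and 27.9% of the *Ltf*/*Camp*-stage cells (16.6%, 15.2%, 29.0% and 31.5% unthinned). The shallower cells left out of these shares numbered 4, 0, 0 and 0 among the former, and 295, 57, 0 and 8 among the latter.

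Transcription factors and receptors divided the ranges further. *Spi1* (PU.1), which both branches need, was at 333, 336, 216 and 296 CPM in the azurophil-high range, 309, 312, 297 and 322 in the *Irf8*/*Ly86* range and 375, 368 and 409 in the *Camp*/*Ngp* range, within a range of 216 to 409 CPM. *Klf4*, a factor of monocyte differentiation, was at 92.5, 115, 675 and 253 CPM in the *Irf8*/*Ly86* range and at 10.9, 0, 0 and 4.16 CPM in the azurophil-high range. *Cebpb* was higher in the *Irf8*/*Ly86* than in the azurophil-high range in every library, at 714, 593, 425 and 683 CPM against 295, 267, 147 and 225 CPM. *Csf3r*, the receptor of granulocyte colony-stimulating factor, was low throughout, at 50.2, 35.6, 88 and 45 CPM over all 169 cells, and kept no order between the ranges. *Il6ra*, the interleukin-6 receptor chain, was at 26, 12.8, 135 and 75.2 CPM in the *Irf8*/*Ly86* range and at 2.19, 0, 0 and 0 CPM in the azurophil-high range. *Selplg*, the ligand of selectins on leukocytes, was at 283, 306, 311 and 333 CPM against 87.5, 58, 19.7 and 20.8 CPM. Of 15 measured receptor genes, 5 were at least 2-fold higher in the *Irf8*/*Ly86* range than in the azurophil-high range in every library, beside the 3.48% of all genes given above. *Kit*, the receptor of stem cell factor, was at 39.4, 29, 128 and 74.9 CPM in the azurophil-high range and at 18.8, 12.8, 13.5 and 5.37 CPM in the *Irf8*/*Ly86* range, and *Flt3* was at most 14.5 CPM in any range.

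Within the primary granule list, not every gene followed *Elane*. Of its 17 measured genes, 9 were at least 2-fold higher in the azurophil-high than in the *Irf8*/*Ly86* range in every library, beside 1.66% of 2530 genes, and 2 were at least 2-fold lower, beside 3.48%. *Elane* and *Prtn3*, which chose the cells, are among the 9, and of the 14 genes that did not choose them, 7 were higher and 2 lower. *Cd63*, a membrane protein of primary granules, was at 1075, 1379, 579.7 and 666 CPM in the azurophil-high range, 83.9, 38.3, 0 and 16.1 in the *Irf8*/*Ly86* range and 1253, 1396 and 949.8 in the *Camp*/*Ngp* range. *Srgn* was at 3383, 3495, 5169 and 4329 CPM, 853, 453, 837 and 494 and 1509, 1948 and 1197 in the same order. *Ctsc*, the protease that activates the serine proteases of the granule, went the other way, at 319, 325, 533 and 484 CPM in the *Irf8*/*Ly86* range against 37.2, 58, 0 and 62.4 CPM in the azurophil-high range. *Lyz2* was the other gene that was lower in the azurophil-high range. *Plac8* was at 4970.0, 5899.6, 2800.5 and 3005 CPM in the azurophil-high range and 2122, 2131 and 829 CPM in the *Camp*/*Ngp* range. *Serpinb1a*, an inhibitor of the granule proteases, was at 803, 1003, 1032 and 645 CPM, against 159, 108, 108 and 145 CPM in the *Irf8*/*Ly86* range and 1443, 1404 and 777 CPM in the *Camp*/*Ngp* range.

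The values on each side of the 0.2% limit ran into each other in CONT replicate 1, but not for every gene in the ABL libraries. In CONT replicate 1, the 9 cells just inside (0.2% to 0.3%) held 972 CPM of *Elane*, 365 of *Mpo* and 1124 of *Prtn3*, and the 22 cells just outside (0.1% to 0.2%) held 618, 110.0 and 713 CPM. *Camp* was at 27765 CPM inside and 29968 CPM outside. The other libraries had 1, 0 and 2 cells just inside and 5, 2 and 7 just outside. There *Camp* was at 408 CPM inside and 27954 CPM outside in ABL replicate 1, and at 26.1 and 25685 CPM in ABL replicate 2. *Mpo* was at 1184 CPM inside and 58.7 CPM outside in ABL replicate 1, and at 808 and 173 CPM in ABL replicate 2.

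Whether ablation changed how many of these cells were sorted was read from their share of cells. The share was 3.31% (95% exact binomial interval 2.73 to 3.96) in CONT replicate 1 and 1.39% (0.852 to 2.14) in ABL replicate 1. In replicate 2 it was 0.292% (0.117 to 0.601) in CONT and 1.14% (0.766 to 1.63) in ABL. The ABL share was thus below the CONT share in replicate 1 and above it in replicate 2, and the intervals, which cover counting error only, did not overlap in either replicate. With 2 libraries against 2, the smallest two-sided exact permutation p is 0.333. These are shares of cells that passed a tdTomato sort, which can set them. As a share of themselves and *Ltf*/*Camp*-stage cells, the *Elane*/*Mpo*/*Prtn3* cells made up 12.3% (10.2 to 14.6) and 8% (4.95 to 12.1) in CONT and ABL of replicate 1, and 9.21% (3.78 to 18.1) and 18.2% (12.6 to 25.1) in replicate 2. On this base the intervals overlapped in both replicates. They also overlapped among all cells once the *Camp*/*Ngp* range was left out, with shares of 1.84% (1.42 to 2.35) and 0.974% (0.533 to 1.63) in CONT and ABL of replicate 1 and 0.292% (0.117 to 0.601) and 0.787% (0.481 to 1.21) in replicate 2.

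**Figure D4:**
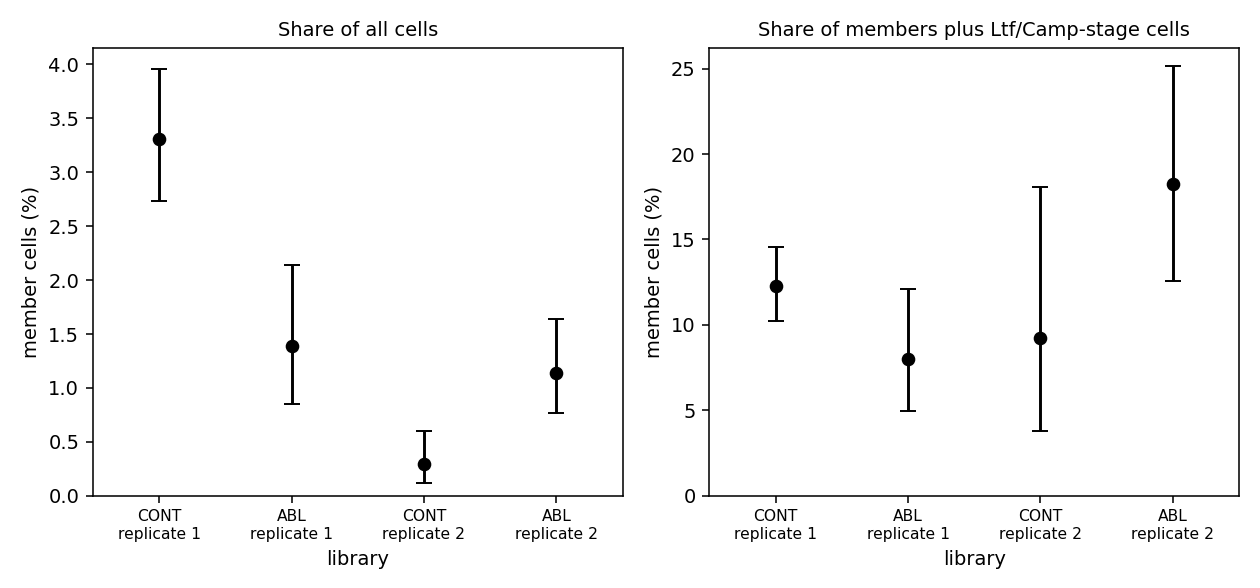
Elane/Mpo/Prtn3 cells (member cells) as a percentage of all cells and of themselves plus Ltf/Camp-stage cells in each library, with 95% exact binomial intervals as error bars. ABL stands below CONT in replicate 1 and above it in replicate 2 on both bases.

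The composition by range overlapped between the libraries in its counting intervals, for each of the 3 ranges. The *Camp*/*Ngp* range made up 44.2% (34.9 to 53.9) of the cells in CONT replicate 1, 30% (11.9 to 54.3) in ABL replicate 1 and 31.0% (15.3 to 50.8) in ABL replicate 2. The azurophil-high range made up 23% (15.6 to 31.9), 35% (15.4 to 59.2), 42.9% (9.90 to 81.6) and 37.9% (20.7 to 57.7) of the cells. The *Irf8*/*Ly86* range made up 32.7% (24.2 to 42.2), 35% (15.4 to 59.2), 57.1% (18.4 to 90.1) and 31.0% (15.3 to 50.8).

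For the expression of these cells after ablation, CONT replicate 2 had 7 cells, under the minimum of 10 set for a test, so each replicate is first described by fold alone. Ratios are ABL over CONT on the log2(CPM + 10) scale, and 2-fold is used as the limit. In replicate 1, 18 of 2238 genes at a mean of 50 CPM or more over its 2 libraries (0.804%) were higher in ABL and 14 (0.626%) lower. This was 1.43% in either direction, around a median of 0.12. Of the azurophil granule list, 0 of 17 measured genes were past 2-fold, which is near the share of all genes, and in replicate 2, 1 of 16 (*Cd63*) was higher. The ratio of *Elane* was 0.14 in replicate 1 and 0.26 in replicate 2, that of *Mpo* 0.44 in replicate 1 and 0.04 in replicate 2 and that of *Prtn3* 0.24 in replicate 1 and 0.30 in replicate 2. *Ms4a3* was at 0.39 in replicate 1 and 0.04 in replicate 2 and *Fcnb* at -0.66 in replicate 1 and 0.17 in replicate 2. *Elane*, *Mpo* and *Prtn3* chose the cells, and their ratios are given for completeness. None of the 28 cell cycle, 17 endoplasmic reticulum and secretory, or 11 ribosome biogenesis genes passed 2-fold in replicate 1, again near the share of all genes, with list medians of 0.00, 0.34 and 0.44. In replicate 2, 35 of 2523 genes (1.39%) were higher and 264 (10.5%) lower, around a median of -0.24. There 1 of 28 cell cycle genes (*Mki67*), 2 of 17 endoplasmic reticulum and secretory genes (*Canx* and *Pdia4*) and 0 of 13 ribosome biogenesis genes were lower, and the list medians were -0.12, -0.19 and -0.28.

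Genes lower in ABL replicate 1 included 5 of 14 secondary granule genes, beside 0.626% of all genes, and in replicate 2, 8 of 14 were higher and 0 lower, beside 1.39% and 10.5%. *Lcn2*, which encodes the iron-siderophore binder lipocalin-2, was at 861, 285, 72 and 932 CPM and *Ltf* at 270.4, 118, 4 and 155 CPM. *Ngp* was at 10141, 4708, 56 and 5927 CPM and *S100a9*, the partner of *S100a8* in calprotectin, at 29848, 14360.3, 9597 and 44843 CPM. In replicate 2 these 4 genes went the other way, with log2 ratios of 3.52, 3.56, 6.49 and 2.22. The share of *Camp*/*Ngp* range cells moved with them in both replicates, from 44.2% in CONT to 30% in ABL in replicate 1 and from 0 of 7 cells to 31.0% in replicate 2. Its part in the differences was not tested.

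In replicate 1, none of the measured genes of the MHC (8), early response and heat shock (14), oxidative burst (16), glycolysis (9), interferon (2), cytokine receptor (10), monocyte-lineage (11) and granulocyte transcription factor (11) lists passed 2-fold. Together these lists hold 79 measured genes, and 1.43% of all genes passed 2-fold in that replicate, so that 0 of 79 is near the share of all genes. In replicate 2, 1 of their 89 measured genes was higher and 10 lower, beside 1.39% and 10.5% of all genes, with 4 of 12 monocyte-lineage and 4 of 17 cytokine receptor genes among those lower. Among their most abundant genes were *B2m*, the light chain of MHC class I, at 1967, 1991, 756 and 488 CPM, the chaperone *Hspa8* at 1231, 1508, 1585 and 1687 CPM, the antioxidant enzyme *Gpx1* at 2368, 2592, 2697 and 2103 CPM and *Gapdh* of glycolysis at 1100.4, 1223, 1273 and 1678 CPM. *B2m* was lower in both libraries of replicate 2 than in those of replicate 1, and the others differed less between libraries. The interferon-induced gene *Ifitm3* was at 320.2, 261, 404 and 265 CPM and the interferon-gamma receptor chain *Ifngr1* at 213, 245, 320.2 and 343 CPM. *Ly6c2*, a surface protein of monocytes and their precursors, was at 2876, 2806, 2257 and 1268 CPM. Of 12 measured genes known to respond in emergency granulopoiesis, the raised granulocyte output of infection, 4 were lower in ABL replicate 1, beside 0.626% of all genes, and in replicate 2, 6 of 14 were higher and 1 lower, beside 1.39% and 10.5%. *S100a8*, *S100a9*, *Lcn2*, *Chil3*, *Wfdc21*, *Hp*, *Anxa1* and *Mmp8* belong to both this list and the secondary granule list, so the counts of the 2 lists overlap. The most abundant markers of B cells and megakaryocytes were low, with *Cd79b* at 22.2, 33.4, 28 and 18.3 CPM and *Pf4* at 2.96, 8.91, 0 and 36.7 CPM.

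Several of the other large differences in replicate 1 were in transcripts of other cell types, and the levels of matrix and hemoglobin transcripts in free RNA moved with them. Collagen I, the main bone matrix protein, had its *Col1a1* chain at 20.2, 312, 0 and 417 CPM in the *Elane*/*Mpo*/*Prtn3* cells, and at 396, 5289, 353 and 11623 CPM in free RNA droplets. All 20 cells of ABL replicate 1 had 3 to 15 *Col1a1* UMIs, and 31 of 113, 0 of 7 and 15 of 29 cells had any in the others. In ABL replicate 2, 2 cells held 231 of the 250 UMIs. Of the 5 measured genes of the osteoblast and matrix list, 4 were higher in ABL replicate 1, beside 0.804% of all genes, and 4 of 5 in replicate 2, beside 1.39%. The osteoblast and matrix list summed to 222, 1272, 488 and 1895 CPM in the cells and 3734, 21449, 8004 and 40180.4 CPM in free RNA, and 2, 0, 6 and 1 of its 13 genes had no UMI in the cells. *Col1a1* had the most UMIs of the list over the 169 cells (431), and *Fn1*, fibronectin, which monocytes also make, had 344. *Fn1* was at 36, 44.5, 428 and 240.0 CPM and led the list in CONT replicate 2, whereas *Ibsp* led in CONT replicate 1, *Col1a2* in ABL replicate 1 and *Col3a1* in ABL replicate 2. The hemoglobin chain *Hba-a1* was at 4831, 947, 28 and 11.7 CPM, against 41272, 23252, 8465 and 2471 CPM in free RNA, and 3 cells of CONT replicate 1 held 2849, 2694 and 1411 of its 9807 UMIs there. Of 5 measured erythroid genes, 4 were lower in ABL replicate 1, beside 0.626% of all genes. In replicate 2, 0 reached a mean of 50 CPM over the 2 libraries, with *Hbb-bs* at 76 CPM in CONT and 8.33 CPM in ABL. The erythroid list summed to 15839, 3891, 156 and 60 CPM in the cells and 152738, 86719, 30062 and 8885 CPM in free RNA, with *Hbb-bs* its most abundant gene in replicate 1 and CONT replicate 2. The part of free RNA in these differences was read only from its subtraction, given below. The basophil and mast cell genes *Prss34*, *Mcpt8* and *Cpa3* came from 1 cell of ABL replicate 1, with 632, 574 and 67 UMIs. That cell had 48 UMIs of *Mpo*, 0 of *Elane* and 2 of *Prtn3* among 14500.

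**Figure D5:**
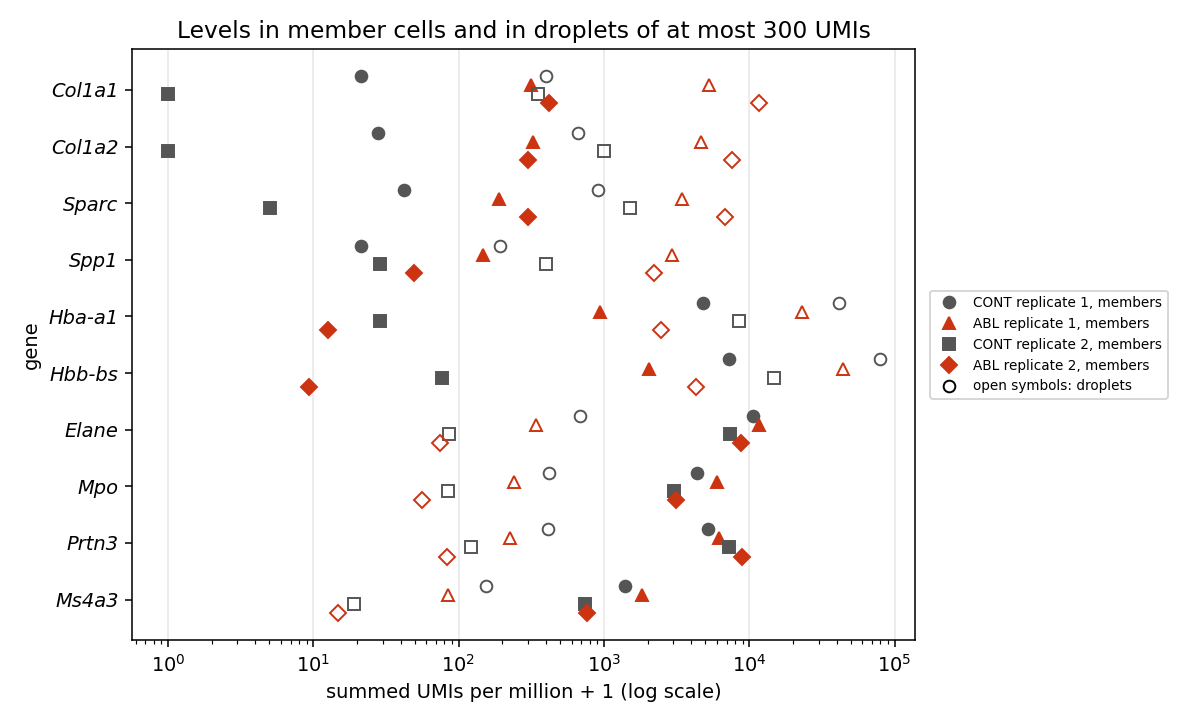
CPM + 1 (log axis) of transcripts of other cell types and of primary granule genes in the Elane/Mpo/Prtn3 cells (members, filled symbols) and in droplets with at most 300 UMIs (open symbols), by library. Col1a1 is higher and Hba-a1 lower in the ABL than in the CONT library of replicate 1, in both cells and droplets.

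All 4 libraries were then fitted together with the replicate as a block, in an edgeR test added after the cell numbers were known. Of 5203 genes, 14 were higher and 14 lower in ABL at a Benjamini-Hochberg adjusted p of 0.05 (0.269% each, 0.538% in all). With the *Camp*/*Ngp* range left out, 5 were higher and 19 lower, and with no *Adipoq* UMI allowed, 4 were higher and 0 lower. The genes that were higher with all cells were *Col1a1*, *Col1a2*, *Col3a1*, *Col5a2*, *Col6a1*, *Sparc*, *Spp1*, *Bgn*, *Mgp*, *Ecm1*, *Igfbp7*, *Mmp13*, *Mcpt8* and *Ngp*. *Col1a1* had a log2 ABL over CONT ratio of 4.45 ± 0.37 (SE, edgeR adjusted p = 3.09e-29). *Spp1*, which encodes osteopontin, had a log2 ABL over CONT ratio of 2.23 ± 0.42 (SE, edgeR adjusted p = 5.04e-05). In the description by fold, *Col1a1* was at 3.41 in replicate 1 and 5.42 in replicate 2, and *Spp1* at 2.38 and 0.62. With the block, 4 libraries leave little from which to estimate the spread between libraries. The SE and p values of this fit therefore cannot be read as a measure of that spread. *Mcpt8* had an edgeR adjusted p of 2.92e-25, although a single cell held 574 of its 582 UMIs in ABL replicate 1. All of the 14 but *Mcpt8* and *Ngp* encode matrix proteins or proteins secreted by stroma. The genes that were lower were *Hba-a1*, *Hba-a2*, *Hbb-bs*, *Hbb-bt*, *Hist1h3c*, *Hist1h2ae*, *Ifi27l2a*, *Lyst*, *Xist*, *Ahnak*, *Wfdc17*, *Gas7*, *Iqgap1* and *Mki67*. *Iqgap1*, a scaffold of the actin cortex, had a log2 ABL over CONT ratio of -1.30 ± 0.32 (SE, edgeR adjusted p = 0.0124) and was at 74.9, 31.2, 396 and 142 CPM. *Ahnak*, a large scaffold protein below the plasma membrane, was at 34.5, 26.7, 596 and 103 CPM. *Mki67*, a marker of dividing cells, was at 83.7, 49, 648 and 215 CPM. *Ngp* and *Xist* moved in opposite directions in the 2 replicates. *Hist1h3c* hardly differed in replicate 1, with log2 ratios of 0.02 there and -2.71 in replicate 2. Leaving out CONT replicate 1, CONT replicate 2 or ABL replicate 2 gave 6, 3 and 8 calls. The count was 0 without the replicate block, with 23 genes at an unadjusted p under 0.05. DESeq2 with the block called 0 genes higher and 3 lower, the hemoglobin genes *Hba-a1*, *Hba-a2* and *Hbb-bs*, and so none of the matrix genes. Of the azurophil granule list 0 of 17, of the endoplasmic reticulum list 0 of 19 and of the ribosome biogenesis list 0 of 17 tested genes were called, with median log2 fold changes of 0.25, 0.18 and 0.14, beside -0.01 over all genes. *Elane*, *Mpo* and *Prtn3*, which chose the cells, are in the first list, and the 14 others, of which 0 were called, had a median of 0.12. Of the cell cycle list 1 of 29 was called (*Mki67*), of the osteoblast and matrix list 5 of 7 and of the erythroid list 4 of 6.

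Leaving out the 6 cells with at least 100 *Col1a1* UMIs, at least 1000 *Hba-a1* UMIs or at least 50 *Prss34* and *Mcpt8* UMIs, chosen after their values were seen, left 9 of the 28 calls: *Col1a1*, *Col1a2*, *Col3a1*, *Sparc* and *Spp1* higher, and *Iqgap1*, *Ahnak*, *Ifi27l2a* and *Hist1h3c* lower. Of the 19 calls lost, 4 fell below the filter on low counts, and *Ngp*, *Mki67*, *Hist1h2ae*, *Gas7*, *Wfdc17*, *Xist* and *Lyst* kept log2 fold changes within 10% of those with all cells, so that these 7 no longer passed at about the same size. The remaining lost calls, *Bgn*, *Col6a1*, *Igfbp7*, *Mmp13* and the 4 hemoglobin genes, had smaller fold changes. *Hba-a1* went from -2.15 to -0.82, *Hbb-bs* from -2.23 to -1.31, *Igfbp7* from 1.68 to 0.39 and *Mmp13* from 1.66 to 1.36. With the free RNA profile of each library subtracted, in amounts set by the *Cxcl12* and tdTomato UMIs of the cells (4.17%, 4.71%, 0.470% and 6.0% of their UMIs), 10 of the 28 calls were kept: *Mcpt8*, *Col3a1*, *Ngp* and *Igfbp7* higher, and *Iqgap1*, *Wfdc17*, *Ahnak*, *Xist*, *Ifi27l2a* and *Hist1h3c* lower. The 14 genes that then fell below the filter on low counts were *Col1a1*, *Col1a2*, *Col5a2*, *Col6a1*, *Sparc*, *Mgp*, *Ecm1*, *Spp1*, *Bgn*, *Mmp13* and the 4 hemoglobin genes, and *Mki67*, *Hist1h2ae*, *Gas7* and *Lyst* did not pass. Of the kept calls, *Mcpt8* had 574 of its 582 UMIs in ABL replicate 1 in a single cell. *Col3a1* had 284 of its 302 UMIs in ABL replicate 2 in 2 cells. The amount in ABL replicate 2 rested mostly on tdTomato: with *Cxcl12* alone, a setting chosen after seeing the data, the amounts were 3.85%, 4.68%, 0.254% and 0.343%, and 16 of the 28 calls were kept, with *Col1a1*, *Col1a2*, *Col3a1*, *Sparc* and *Hbb-bs* among them.

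Whether ablation acted differently on the *Elane*/*Mpo*/*Prtn3* cells than on *Ltf*/*Camp*-stage cells was tested as an interaction, a contrast the rule did not use, with CONT replicate 2 left out for its 7 cells. CONT was then a single library, assumed to vary like the 2 ABL libraries. Of 9622 genes, 0 passed in edgeR and 188 had an unadjusted p under 0.05. DESeq2 also called 0, with 19 at an unadjusted p under 0.05. Among genes at 50 CPM or more, the smallest p values with a larger ABL effect in the *Elane*/*Mpo*/*Prtn3* cells belonged to *Prss34*, *Mcpt8*, *Col3a1*, *Prdx2* and *1810022K09Rik*, the first 2 from the single cell described above. In the other direction they belonged to *Lars2*, *B230208H11Rik*, *Kdelr2*, *Ankrd11* and *Gsn*. For *Col3a1*, 2 cells held 284 of the 302 UMIs in ABL replicate 2. In ABL replicate 1 it was at 75.7 CPM in the *Elane*/*Mpo*/*Prtn3* cells and 125 CPM in the *Ltf*/*Camp*-stage cells. The test rested on 113, 20 and 29 *Elane*/*Mpo*/*Prtn3* cells.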

How the data were processed

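The authors aligned reads to mm10 with added transgene sequences using Cell Ranger (version 3.0.0 per the file headers of the v3 libraries) and deposited raw UMI counts for all barcodes. Cells needed at least 500 genes, at most 20% mitochondrial UMIs and at least 2700 UMIs in replicate 1 (v2), and at least 1000 genes, at most 15% and at least 4000 UMIs in replicate 2 (v3). Counts were summed over the chosen cells of a library, because cells are not replicates, and scaled to CPM. A floor of 3 counts for a value of 0 was worth 1.48 CPM (CONT) and 6.68 CPM (ABL) in replicate 1, and 12.0 and 5.00 CPM in replicate 2. Intervals cover counting error only.

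The chosen cells and gene lists were fixed with earlier results of these data known. The planned edgeR test needed 10 cells per library, so it became a description by fold (pseudocount 10 CPM), and a 4-library fit was added (edgeR 4.0.16, quasi-likelihood, TMM, filterByExpr, replicate as block; DESeq2 1.42.0 as alternative; R 4.3.3). Scrublet was run in scanpy 1.11.5. The study took both femurs from the same mice; deviations of same-numbered libraries correlated at r = 0.71 over 2432 genes, a value that includes shared chemistry, and *Xist* and Y transcripts show a different mix of female and male cells in CONT and ABL of each replicate. On simulated counts, the 4-library fit recovered 91 of 95 genes changed 4-fold and 64 of 105 changed 2-fold among 2963 genes, with 3 false calls. The interaction fit recovered 73 of 95 and 13 of 105 among 4458 genes, with 6 false calls. The simulated counts covered abundant genes only and had a fixed dispersion. Apart from the changed genes, the expected share of a gene was the same in every library. Chemistry, free RNA, single outlying cells and the mix of animals were not simulated, so these rates cannot be carried over to the real libraries. Named genes were the markers, the 15 largest called changes each way that went the same way in both replicates at 50 CPM or more, the 4 most abundant members and called members of each list (lists with no call are given mostly by counts), 20 leading genes against other marrow cells and 5 genes each way in the interaction. Range genes, steps and other genes were chosen after their values were seen. Lists of mature neutrophil, stem and progenitor, T and NK cell and reticular genes had 0 of 5, 4, 1 and 6 measured genes past 2-fold in replicate 1, beside 1.43% of all genes. In replicate 2, 1 of 6 mature neutrophil genes (*Wfdc17*, also called in the 4-library fit) was lower and 1 of 3 reticular genes (*Apoe*) higher. Samples were assigned as labelled, and nothing separates cells by mouse.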

Additional observations from a re-analysis of the deposited data

How the results depend on the processing

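The number of genes past 2-fold in replicate 1 (32) went to 20 with the member threshold at 0.1%, 60 with no *Adipoq* UMI allowed and 307 with every cell thinned. In replicate 2, the 35 higher and 264 lower genes became 25 and 169 with the threshold at 0.1%. With every cell thinned they became 218 and 892. In the 4-library fit, 28 genes were called. The count was 13 with the threshold at 0.5%, 4 with no *Adipoq* UMI allowed (all higher in ABL), 9 with doubtful cells left out and 9 with cells thinned. It was 13 with free RNA subtracted (16 scaled to *Cxcl12* alone), 3 by DESeq2 with the block (all lower in ABL) and 15 without TMM. With the pairing ignored (no replicate block) it was 0, so the calls rest on the block. Leaving out 1 library each gave 3 to 37 genes: 6 without CONT replicate 1, 37 without ABL replicate 1, 3 without CONT replicate 2 and 8 without ABL replicate 2, where the remaining single library of a condition is assumed to vary like the others. The interaction called 1 gene (*Mcpt8*) in edgeR with all 8 sums, 0 in DESeq2 with the same sums and 0 in either with 6. The share in CONT replicate 1 (3.31%) was 2.05% with no *Adipoq* UMI allowed and 1.84% with *Camp*/*Ngp* range cells left out. The other shares moved by less than their counting interval under every setting tried. The smallest libraries held 7 and 20 cells. The causes of these shifts were not tested.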
